A study of Mus musculus with 16 samples.

Results

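The unfolded protein response is described here through 9 genes, Xbp1, Atf4, Ddit3, Trib3, Hspa5, Pdia4, Sdf2l1, Dnajb9 and Herpud1, in the livers of 16 male mice. The genes were chosen by their symbol in the array's annotation, and all 9 were measured, each by 1 probe, among 36824 features in all. The mice were on a chow diet, and 8 of them were heterozygous for a knockout of Lpl (Lpl+/-), the gene of lipoprotein lipase, while the other 8 were wild type controls. Every liver was hybridised on a 2-colour array against the same pooled RNA, made from 9 wild type livers. Age, strain and the kind of targeted allele are not stated in the labels, and the Lpl+/- mice keep 1 intact copy of Lpl. Whole liver was measured, so fewer cells of a type and less RNA per cell cannot be told apart.

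The endoplasmic reticulum (ER) folds the proteins that a hepatocyte secretes, and the unfolded protein response adjusts its capacity to that load. It has 3 sensors in the ER membrane. Ire1 (gene Ern1) splices the mRNA of the transcription factor Xbp1, Atf6 is cut in the Golgi into a transcription factor, and Perk (gene Eif2ak3) phosphorylates eIF2 alpha, which raises translation of Atf4. Atf6 and Xbp1 turn on ER chaperones and the machinery that removes misfolded proteins, while Atf4 turns on amino acid metabolism, Ddit3 and Trib3. The probes report total mRNA, so splicing of Xbp1, cleavage of Atf6 and translation of Atf4 were not measured.

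The deposited log ratios were read as log10 of mouse over pool, so that 0 is the level of the pool. No source used here states the base, and folds below rest on base 10. With base 2 they would lie nearer to 1. The direction is likely, from the titles and dyes. Wild type 5 and wild type 8 opposed each other over all probes (r = -0.352, the 1 pair of 120 below -0.3), so their direction is unsettled, and the limma fits were repeated with either sign turned. Lpl, as a check of the labels, was lower in Lpl+/- livers by a log ratio of -0.378 (limma adjusted p = 0.0158). Hepatocyte markers were present on the array (7 of 8), but ratios give no level against which to check the tissue. The number of mice limits the precision of every value.

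None of the 9 genes passed the test between Lpl+/- and wild type livers. This was 0 of 9 at a limma adjusted p under 0.05, against 0.0163% of all features (6 of 36824), and 0 of 9 at an unadjusted p under 0.05, against 5.6% of all features. In all 9 genes the ranges of the groups overlapped. Ranges that did not overlap were seen in 0.038% of features. The intervals still allowed sizeable differences, widest for Pdia4, Sdf2l1, Herpud1, Trib3 and Hspa5, as the plot of group differences shows. The call count was 0 of 9 in each of 28 other settings, including either turned sign and each mouse left out.

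**Figure D1:**
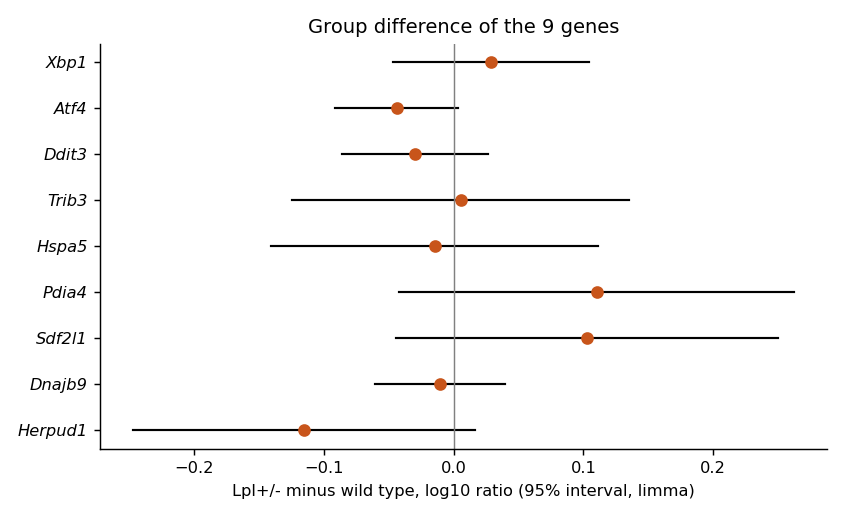
Difference of the mean log10 ratio between 8 Lpl+/- and 8 wild type livers for each of the 9 genes, with the 95% interval of the limma fit; points right of 0 were higher in Lpl+/- livers. All 9 intervals include 0, and the differences run from -0.115 for Herpud1 to 0.110 for Pdia4.

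Xbp1 encodes the transcription factor that Ire1 activates by splicing. Its log ratio was 0.000375 ± 0.0653 (SD, n = 8) in wild type and 0.0291 ± 0.0842 (SD, n = 8) in Lpl+/- livers, a difference of 0.0288 (limma adjusted p = 0.884). Of the 16 mice, 8 stood above the pool, 4 of each genotype. Atf4 encodes the factor whose translation Perk raises. It ranged from -0.0700 to 0.0606 in wild type livers (median 0.00555) and from -0.104 to 0.0124 in Lpl+/- livers (median -0.0642). Both ranges overlapped over most of their length, with the highest values in wild type and the lowest in Lpl+/- mice. The difference was -0.0440, a fold of 0.904 with an interval of 0.810 to 1.01 (limma adjusted p = 0.836, exact permutation p = 0.0800, two-sided). Atf4 had the smallest unadjusted p of the 9 genes in this comparison (limma unadjusted p = 0.0667).

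Ddit3 encodes Chop, a factor linked to cell death under lasting ER stress. Its mean was 0.0137 ± 0.0581 (SD, n = 8) in wild type and -0.0162 ± 0.0529 (SD, n = 8) in Lpl+/- livers (difference -0.0299, limma adjusted p = 0.849). Trib3, a pseudokinase gene downstream of Atf4 and Chop, varied far more from mouse to mouse. It ran from -0.212 to 0.233 in wild type and from -0.117 to 0.211 in Lpl+/- livers. The means were nearly alike, with a difference of 0.00555 (limma adjusted p = 0.990). Its sign turned in 4 of 12 other settings and without 5 of the mice, each time without a call.

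Hspa5 encodes BiP, the Hsp70 chaperone of the ER lumen that also holds the sensors inactive. In wild type livers its log ratio ran from -0.163 to 0.122 (median -0.0111), and in Lpl+/- livers from -0.196 to 0.239 (median -0.0697). Lpl+/- 4 was the highest of all mice at 0.239, next to it stood wild type 8 at 0.122 and wild type 7 at 0.0802, and Lpl+/- 2 was the lowest at -0.196. The lowest and the highest mouse, 2.73-fold apart, were thus both Lpl+/-, and the wild type mice lay between them. The group difference was -0.0146, a fold of 0.967 with an interval of 0.724 to 1.29 (limma adjusted p = 0.967). With wild type 8 turned it was 0.0159, again without a call (limma adjusted p = 0.964).

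Pdia4 encodes a protein disulfide isomerase of the ER, and Sdf2l1 an ER protein that works with BiP and its DnaJ partners. Pdia4 ran from -0.278 to 0.185 in wild type livers (median -0.0561) and from -0.210 to 0.202 in Lpl+/- livers (median 0.0547). Sdf2l1 ran from -0.230 to 0.228 in wild type (median -0.0514) and from -0.0977 to 0.294 in Lpl+/- livers (median 0.0168). In both genes the lowest mice were wild type 2 and wild type 9, the highest group held Lpl+/- 3, 4 and 5 with wild type 6, and the genotypes overlapped. The differences were 0.110 for Pdia4, a fold of 1.29 with an interval of 0.908 to 1.83, and 0.103 for Sdf2l1, a fold of 1.27 with an interval of 0.903 to 1.78 (limma adjusted p = 0.836 for both, exact permutation p = 0.172 and 0.190, two-sided).

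Dnajb9 encodes ERdj4, a DnaJ partner of BiP. It was the gene with the narrowest Lpl+/- range, from -0.0723 to 0.0167, while wild type livers ran from -0.118 in wild type 9 to 0.102 in wild type 6. The group difference was -0.0103 (limma adjusted p = 0.941). Herpud1, which encodes an ER membrane protein of the degradation pathway, showed the largest difference in size, -0.115, a fold of 0.767 with an interval of 0.567 to 1.04 (limma adjusted p = 0.836, exact permutation p = 0.106, two-sided). Its values are described further below, since they fell into separate sets of mice.

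**Figure D2:**
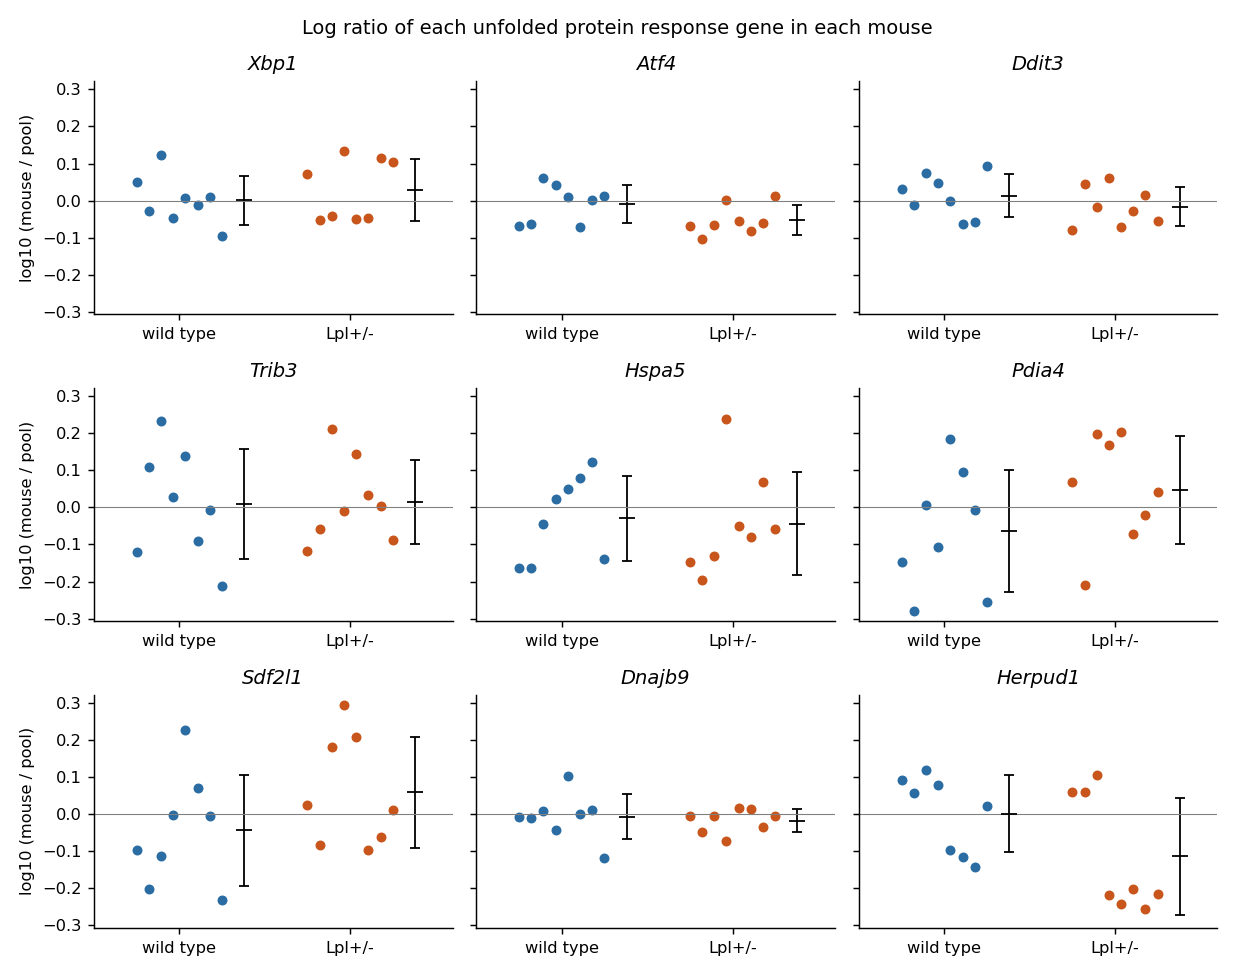
Log10 ratio of mouse over pool for the 9 genes, 1 point per mouse in replicate order, wild type in blue and Lpl+/- in orange, with mean and SD of each group of 8 beside the points. Pdia4, Sdf2l1, Trib3, Hspa5 and Herpud1 spread widely within both genotypes, whereas Atf4, Ddit3 and Dnajb9 stayed near 0.

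The genes differed in how much they varied between mice of the same genotype. Among all features ordered by their SD within genotype, Pdia4 stood at percentile 97.0, Sdf2l1 at 96.7, Herpud1 at 95.8, Trib3 at 95.7 and Hspa5 at 95.3. Xbp1 stood at percentile 83.1, Ddit3 at 68.1, Dnajb9 at 60.2 and Atf4 at 56.6. Chaperone genes stood far apart in this order, Pdia4 and Sdf2l1 at the top and Dnajb9, the DnaJ partner of BiP, below the factor genes Xbp1 and Ddit3. Over the 16 mice, Sdf2l1 spanned 3.34-fold and Atf4 1.46-fold. Neither the mean of the wild type mice nor that of the Lpl+/- mice was called different from the pool in any of the 9 genes (0 of 9 at a limma adjusted p under 0.05). For the wild type mean this compares with 0.0% of features, and at an unadjusted p under 0.05 with 0 of 9 genes and 1.88% of features. For the Lpl+/- mean it compares with 0.0543% of features, and at an unadjusted p under 0.05 with 2 of 9 genes and 12.2% of features, Atf4 (limma adjusted p = 0.219) and Herpud1 (limma adjusted p = 0.324), both below the pool. All arrays share the same pool, so its own deviation is not covered by these p-values. The sample titles do not say whether the pool held the wild type mice measured here. If it did, their mean would be drawn towards 0, so the shares of the genotypes cannot be set against each other.

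Across mice, the 9 genes did not move as 1 block. Herpud1 is left out of these correlations, because its 16 values form separate sets. Of the other 28 pairs, 22 had a positive Pearson r, the median r was 0.187, and 5 had an unadjusted permutation p under 0.05. After adjustment over all 36 pairs computed, 1 pair remained, Pdia4 with Sdf2l1 (r = 0.907, permutation p = 1e-05, the smallest that 100000 resamples give, adjusted p = 0.00036; rho = 0.879, permutation p = 3e-05). In the fit of every feature on Pdia4 it was also called (limma adjusted p = 4.05e-04), where 12.4% of features were. The correlation was 0.907 among wild type mice (exact permutation p = 0.00174, n = 8) and 0.881 among Lpl+/- mice (exact permutation p = 0.00437, n = 8), and it was 0.861 without wild type 2 and wild type 9, the mice farthest from the median of Pdia4.

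Hspa5 moved less closely with these genes. Its r was 0.558 with Sdf2l1 (permutation p = 0.0256, rho = 0.524 with permutation p = 0.0405) and 0.511 with Pdia4 (permutation p = 0.0447, rho = 0.503 with permutation p = 0.0506). Neither passed after adjustment over 36 pairs (adjusted p = 0.229 and 0.268), and without wild type 8 and Lpl+/- 4 the values were 0.421 and 0.483. Hspa5 and the factors Atf4 and Xbp1 had r = 0.415 (permutation p = 0.109, rho = 0.409 with permutation p = 0.116) and r = 0.421 (permutation p = 0.105, rho = 0.453 with permutation p = 0.0811). Among the 28 pairs without Herpud1, the lowest r was that of Ddit3 and Dnajb9 (r = -0.546, permutation p = 0.0238, adjusted p = 0.229, and rho = -0.630, permutation p = 0.0100). It was -0.481 without wild type 4 and wild type 9. Atf4 and its target genes Ddit3 and Trib3 had r = 0.400 (permutation p = 0.124, rho = 0.432 with permutation p = 0.0955) and r = 0.169 (permutation p = 0.526, rho = 0.235 with permutation p = 0.377), both far from a call.

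**Figure D3:**
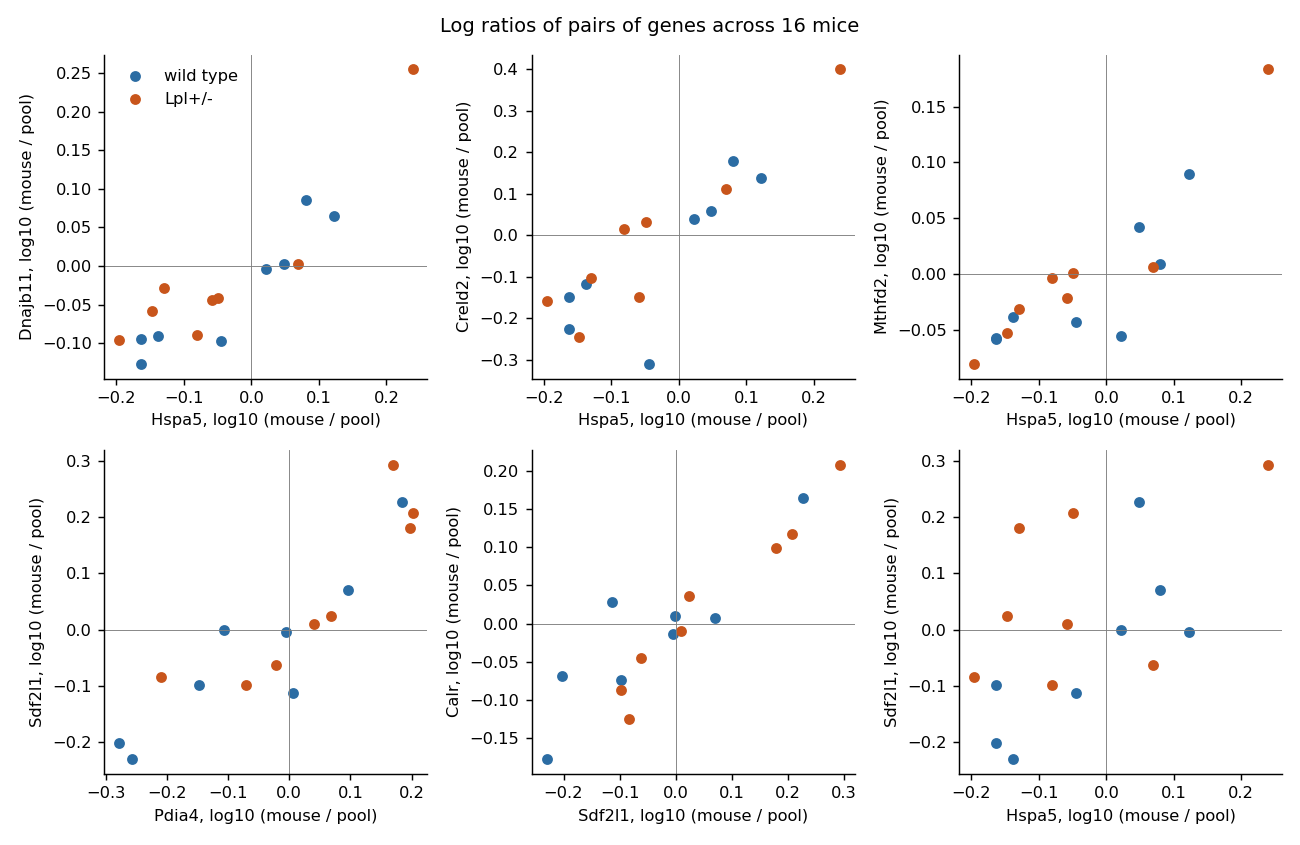
Log10 ratio of 1 gene against that of another in the 16 mice, wild type in blue and Lpl+/- in orange. Dnajb11, Creld2 and Mthfd2 follow Hspa5, with Lpl+/- 4 at the upper right in each, Sdf2l1 follows Pdia4 and Calr follows Sdf2l1, while Sdf2l1 against Hspa5 is a looser cloud.

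Features that moved with Hspa5 across mice were counted next. Of all other features, 175 were called with Hspa5 at a limma adjusted p under 0.05 (0.475%), 115 of them positively (0.312%). The 10 named genes with the highest r were Nars, Dnajb11, Spcs2, Tfeb, Sec22l1, Ostc, Mthfd2, Surf4, Morf4l2 and Creld2. Of these 10, 4 are in the pathway lists, Nars, Dnajb11, Mthfd2 and Creld2. Dnajb11 is a DnaJ partner of BiP, Spcs2 a signal peptidase subunit, Ostc a subunit of the oligosaccharyltransferase, Surf4 a cargo receptor for ER export, Creld2 an ER resident protein induced by stress, and Sec22l1, an older symbol of Sec22b, a SNARE of ER to Golgi transport. Nars, an asparaginyl tRNA synthetase, and Mthfd2, a mitochondrial folate enzyme, are known targets of Atf4. Tfeb encodes a lysosomal transcription factor and Morf4l2 a chromatin protein.

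The 10 correlations lay between 0.870 and 0.927 (permutation p from 1e-05 to 2e-05) and rho between 0.827 and 0.929 (permutation p from 1e-05 to 0.00018), with limma adjusted p from 0.00255 to 0.0139. Since these genes were picked for their r, the values describe them. The relation was seen in both genotypes, with r from 0.754 to 0.930 in wild type and from 0.907 to 0.987 in Lpl+/- mice. Without wild type 8 and Lpl+/- 4, the mice farthest from the Hspa5 median, it was 0.751 to 0.895. None of the 10 genes was called between genotypes (background 0.0163%), and 4 of them were higher and 6 lower in Lpl+/- livers.

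The values of single mice show the pattern. Creld2 had the widest range, from -0.310 in wild type 4 to 0.400 in Lpl+/- 4, and its other high values were 0.180 in wild type 7, 0.138 in wild type 8 and 0.111 in Lpl+/- 7. These are also the highest mice for Hspa5. Wild type 4 was an exception, lowest for Creld2 and at -0.0445 for Hspa5. Nars was highest, at 0.0802, in both wild type 8 and Lpl+/- 4, and lowest in wild type 2 at -0.116. None of the other 8 genes of the unfolded protein response described here was called with Hspa5, as against 0.475% of all features.

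The number of features called with Hspa5 rested in part on single mice. It was 14 without Lpl+/- 4, 30 without wild type 8, 44 without Lpl+/- 2, 64 without wild type 7, 65 without wild type 2, 98 without Lpl+/- 3 and 100 without Lpl+/- 6, and it was 333 without wild type 9 and 419 without wild type 5. Nars and Dnajb11 were called in each of the 16 fits without 1 mouse, with limma adjusted p up to 0.0142 and 0.0489. Creld2 was no longer called without Lpl+/- 4 (r = 0.794, limma adjusted p = 0.149).

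The promoter of Hspa5 is the textbook site of the ER stress response element (ERSE), the letters CCAAT and CCACG with 9 bases between them, which NF-Y and Atf6 bind together. Sequences of 250 bases before to 50 after each start were taken from RefSeq, assembly GRCm38.p6, and all 9 genes matched. On either strand, the motif was in 0.119% of 32851 such windows, and of the 9 genes only the window of Hspa5 held it. Of the 10 genes named above, 7 had a window, and Creld2 held it. The 150 bases before the start are shown for both, 5′ to 3′ in the direction of the gene, with the ERSE in capitals. For Hspa5 this is chr2:34771940-34772089, plus strand, with the motif 65 to 47 bases before the start. For Creld2 it is chr15:88819496-88819645, plus strand, with the motif on the opposite strand 126 to 108 bases before the start.
Hspa5: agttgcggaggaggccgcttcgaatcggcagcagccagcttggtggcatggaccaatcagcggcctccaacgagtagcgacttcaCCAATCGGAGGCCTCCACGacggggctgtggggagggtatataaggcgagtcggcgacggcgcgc
Creld2: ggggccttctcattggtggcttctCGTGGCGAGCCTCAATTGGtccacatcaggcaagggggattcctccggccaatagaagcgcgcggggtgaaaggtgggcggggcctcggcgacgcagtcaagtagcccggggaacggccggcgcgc
A match describes the letters, not a bound site. In the list of ER chaperones and foldases read further below, 7 of 18 genes with a window held an ERSE. Of these, Creld2 was called with Hspa5, while Calr, Canx, Pdia6 and Dnajc3 were not, and Hsp90b1 and Ero1b were not analysed.

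Pdia4 and Sdf2l1 moved with a much larger share of the array. With Pdia4, 4580 features were called (12.4%), and with Sdf2l1 1983 (5.39%), 803 of them positively (2.18%). Both genes also went with the median log ratio of the array (Pdia4 r = -0.640, permutation p = 0.006, rho = -0.490, permutation p = 0.0572; Sdf2l1 r = -0.659, permutation p = 0.00496, rho = -0.487, permutation p = 0.0587). The adjusted p over 12 such relations was 0.036 for both r values, and without the farthest 2 mice they were -0.599 and -0.546. The part of this in the counts of called features was not tested. With each array centred on its median, the r between Pdia4 and Sdf2l1 was 0.909 (limma adjusted p = 3.65e-04).

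The named genes most like Sdf2l1 were Calr, Esyt1 and Dhdds. Calr encodes calreticulin, the lectin chaperone that retains unfinished glycoproteins in the ER, and Dhdds an enzyme of dolichol synthesis, which supplies the lipid carrier for N-glycans. Esyt1 tethers the ER to the plasma membrane. Calr and Sdf2l1 had r = 0.923 (permutation p = 1e-05, rho = 0.838, permutation p = 0.00012, limma adjusted p = 0.00273), 0.883 in wild type and 0.975 in Lpl+/- mice, and 0.864 without wild type 6 and Lpl+/- 4. Calr ran from -0.177 in wild type 9 to 0.208 in Lpl+/- 4, the mice that were also lowest and highest for Sdf2l1. Most like Pdia4 were Obsl1, a cytoskeletal adaptor gene (r = 0.954), Ormdl3, a regulator of sphingolipid synthesis in the ER (r = 0.940), and Arel1, a ubiquitin ligase gene (r = 0.930). Each had a permutation p of 1e-05 for r, with rho of 0.929, 0.956 and 0.953 (permutation p = 1e-05), and without wild type 2 and wild type 9 the r values were 0.924, 0.915 and 0.899. All these genes were picked for their r, so the values describe them.

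The window of Calr also held an ERSE, on the strand opposite to the gene, 162 to 144 bases before the start. It is shown because Calr was the gene closest to Sdf2l1, as the bases from 200 to 51 before the start, chr8:84846982-84847131, minus strand, with the ERSE in capitals.
Calr: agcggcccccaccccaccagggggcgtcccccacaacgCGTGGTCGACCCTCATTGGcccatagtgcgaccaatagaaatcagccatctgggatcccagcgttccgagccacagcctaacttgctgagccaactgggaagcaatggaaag
The window of Sdf2l1 itself held no match to these letters.

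The counts for Sdf2l1 depended on single mice and on scale. They were 43 without wild type 9, 707 without Lpl+/- 5, 716 without wild type 2, 729 without wild type 6, 863 without Lpl+/- 3, 1257 without Lpl+/- 2 and 1285 without Lpl+/- 6, and 3782 without wild type 4. With quantile normalization 12 features were called, and with genotype as a covariate 512. For Pdia4 the count was 2320 without wild type 9, 3016 without Lpl+/- 5, 2784 without the 3 arrays holding the most values at the limit of the scale, 2053 with quantile normalization and 1306 on the 14 arrays of shared replicate numbers. On these 14 arrays it was 2 for Sdf2l1, and with Spearman's rho 364. The correlation of Pdia4 with Sdf2l1 stayed between 0.887 and 0.932 in the 16 fits without 1 mouse, with limma adjusted p up to 0.00252.

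Xbp1, Atf4, Ddit3 and Trib3 had no called partners, with 0.0% of features each, and Dnajb9 had 1 (0.00272%). The genes closest to them are therefore given as descriptions. Closest to Xbp1 were Pgf, Gjb2 and Prdm4 (r from 0.812 to 0.852). For Atf4 they were Nudt22 (r = 0.847), the sensor gene Ern1 (r = 0.794, permutation p = 0.00039, rho = 0.768, permutation p = 0.00089) and Olfr1489 (r = 0.774). Ern1 and Atf4 had r = 0.877 in wild type and 0.552 in Lpl+/- mice, and r = 0.677 without wild type 4 and wild type 5 (limma adjusted p = 0.937). For Ddit3 they were 1700063O14Rik, 1700108L22Rik and Igf2r (r from 0.794 to 0.812), for Trib3 the ferritin gene Ftl1, Hexa and Zfp219 (r from 0.843 to 0.889), and for Dnajb9 Prickle2, the lysozyme gene Lyz1 and Poldip3 (r from 0.858 to 0.868). Without wild type 6 and wild type 9 the r of Dnajb9 with Poldip3 was 0.591.

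Herpud1 stood apart from the other 8 genes, because its values fell into 2 sets of 8 mice with a gap of 0.117 between them. The next largest gap was 0.0598. In wild type 1, 2, 4, 5 and 9 the log ratio was 0.0910, 0.0575, 0.118, 0.0789 and 0.0210, and in Lpl+/- 1, 2 and 3 it was 0.0608, 0.0590 and 0.105. In wild type 6, 7 and 8 it was -0.0959, -0.115 and -0.143, and in Lpl+/- 4 to 8 it was -0.217, -0.243, -0.202, -0.256 and -0.214. Both genotypes were in both sets, 5 wild type and 3 Lpl+/- mice above the pool and 3 wild type and 5 Lpl+/- mice below it. The mean difference between genotypes of -0.115 combined these unequal numbers with lower values of the Lpl+/- mice below the pool, where all 5 were under all 3 wild type mice. The sets were formed with wild type 5 and wild type 8 as deposited, although the direction of both is unsettled. Turning either sign would move that mouse to the other side of the pool. The counts above and the values within sets below therefore rest on the deposited signs.

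The 3 named genes closest to Herpud1 were Rimbp2, a synaptic scaffold gene, Per1, a period gene of the circadian clock, and Timp3, an inhibitor of metalloproteinases. No correlation over all mice is given, since the mice form separate sets. Per1 was above the pool in the same 8 mice as Herpud1, at 0.0080 to 0.0592, and below it in the other 8, at -0.0907 to -0.0066. Of 10 clock genes measured, Per1 was the only one on the same side of the pool as Herpud1 in 16 of 16 mice. Dbp, Per2 and Per3 were so in 15 mice, all but wild type 9, and Clock was on the opposite side in all but wild type 9 too. Arntl, which opposes Dbp in the daily cycle, shared the side in 2 mice, wild type 9 and Lpl+/- 4. No source used here gives the time of death, and the part of the daily cycle in the Herpud1 values was not tested.

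Among the 8 mice above the pool Herpud1 and Per1 had r = 0.0424, and among the 8 below it r = 0.887. Below the pool the 3 wild type mice lay above all 5 Lpl+/- mice for Herpud1, Per1 and Lpl alike. The genotypes and these r values cannot be told apart there. How many of all features split these mice in the same way was not counted, and Lpl is the knocked-out gene. Lpl had r = 0.952 with Herpud1 in the 8 mice below the pool (exact permutation p = 0.00112, adjusted over 38 relations 0.0212) and -0.161 in the 8 above it (exact permutation p = 0.703). The mice below the pool were set apart by Herpud1 itself, and the permutation mixed both genotypes. Its p therefore does not show a relation of Lpl with Herpud1 apart from genotype. Rimbp2 had r = 0.958 with Herpud1 among the mice above and 0.785 among those below. Per1 and Rimbp2 were picked for their r with Herpud1 over these mice, so their values are descriptions. With a clock score (Arntl less the average of Dbp and Per2) as a covariate, the genotype difference of Herpud1 was -0.0878 (limma adjusted p = 0.816).

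**Figure D4:**
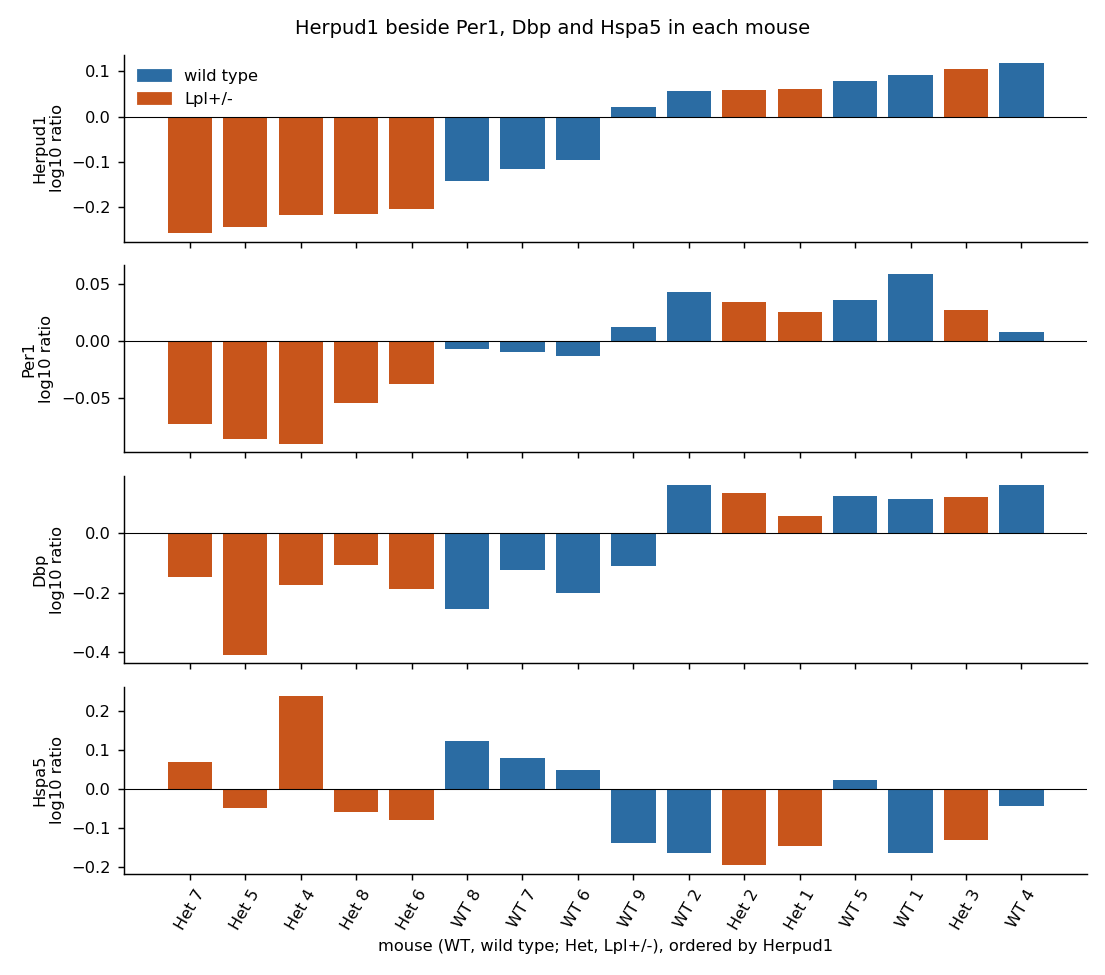
Log10 ratio of mouse over pool of Herpud1, the clock genes Per1 and Dbp, and Hspa5 in each mouse, with mice in the order of their Herpud1 value, wild type in blue and Lpl+/- in orange. Per1 changes sign where Herpud1 does, Dbp does so except in wild type 9, and Hspa5 is highest in Lpl+/- 4.

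Herpud1 has a known ER stress element of another form, ERSE-II, the letters ATTGG and CCACG with 1 base between them, found in 0.0365% of windows and here in Herpud1 and, among the genes above, Dnajb11. Its window also held the C/EBP-ATF composite TGATGNAAN, the element known for Atf4, which 3.95% of windows hold. Trib3 was the other of the 9 genes with the latter. The 150 bases before the start of Herpud1, chr8:94386279-94386428, plus strand, are shown with ERSE-II in capitals 52 to 42 bases before the start and the composite, which lies on the opposite strand, in capitals 113 to 105 bases before it.
Herpud1: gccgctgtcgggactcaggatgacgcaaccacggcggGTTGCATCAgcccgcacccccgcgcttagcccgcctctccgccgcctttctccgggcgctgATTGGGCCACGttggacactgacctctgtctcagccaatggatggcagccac
An E-box, CACGTG, the letters that Clock and Arntl bind, was in 7.15% of windows and among the 9 genes in that of Dnajb9, not in that of Herpud1. Herpud1 lies on chromosome 8, as does Lpl.

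The rest of the pathway was read from lists of genes. Of 11 sensors and transducers, 20 ER chaperones and foldases, 22 genes of ER translocation, transport and degradation and 24 targets of Perk and Atf4, 11, 16, 20 and 22 were measured. None was called between genotypes (0 of 69 in all, background 0.0163%), and 5 had an unadjusted p under 0.05, against 5.6% of features. The median difference was -0.00546, 0.0186, 0.0153 and -0.00939 in the order of the lists, against 0.000531 over all features. Of the 3 genes with the smallest p in each list, the lowest was that of Atf3, a stress transcription factor downstream of Atf4 (-0.0861 in Lpl+/- against 0.00521 in wild type, a fold of 0.810, exact permutation p = 0.00295, two-sided), whose highest wild type value was 0.173 in wild type 5. The direction of wild type 5 is unsettled, and the Atf3 difference was not read with that sign turned. Gdf15, the gene of a secreted stress hormone, lies on chromosome 8, as does Lpl. It stood at a fold of 0.662 (exact permutation p = 0.0541), and Shmt2, a mitochondrial serine enzyme, at 1.11 (exact permutation p = 0.0403). Ube2j1, a ubiquitin conjugating enzyme of ER degradation, stood at 0.905 (exact permutation p = 0.0137). The limma adjusted p of each of these was 0.836. Ern1 and Atf6 stood at 0.940 and 0.937, and Erp44, Ero1a and Ppib at 1.08, 0.868 and 1.10, with limma adjusted p from 0.836 to 0.842.

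With Hspa5 as the reference, the lists differed in their counts and medians of r. Of 16 ER chaperones, 4 were called positively, Dnajb11, Creld2, Manf and Uggt1, against 0.312% of features, and the median r was 0.625 against -0.0233 over all features. In 11 of the 16, r was over 0.5, as it was for 6.03% of features. The median r was 0.515 for translocation and degradation, where 1 of 20 was called (Syvn1, the ER ubiquitin ligase Hrd1), and 0.370 for targets of Perk and Atf4, where 3 of 22 were called, Nars, Mthfd2 and Aars, an alanyl tRNA synthetase. For the sensors it was 0.143 with 0 of 11 called. Uggt1, which checks glycoprotein folding, was named after its value was seen. The counts for the lists rested in part on single mice. Without Lpl+/- 4 the count for chaperones was 1 with a median r of 0.421, with 4 of 16 over 0.5, and in each of the 15 other fits without 1 mouse the count was 4. It was 2 with the clock score as a covariate and 1 with Spearman's rho, whose median was 0.481 with 8 over 0.5. For targets of Perk and Atf4 it was 1 without Lpl+/- 4 and with the clock score, 2 with Spearman's rho, and 5 without wild type 1 or wild type 5. For translocation and degradation it was 0 without Lpl+/- 2, 4, 6 or 7 or wild type 2, 7 or 8, 0 with the clock score or Spearman's rho, and 2 without wild type 1, 5 or 9 and with quantile normalization.

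With Sdf2l1 the medians of r of these 4 lists stood in the same order, with other counts of calls. Of the 16 ER chaperones, 9 were called positively, against 2.18% of features, with a median r of 0.686. They included Calr, Txndc5, Ppib and Hyou1, with r of 0.923, 0.867, 0.836 and 0.720. The only chaperone list gene with a negative r was Ero1a (r = -0.607), which was not called. The translocation list had 6 of 20 called, with Ssr1, Edem1, Sel1l and Sec61a1 among them (r from 0.780 to 0.825). Among the sensors the median r was -0.137, against -0.0382 over all features, and 5 of 11 had a positive r. The 2 called were Atf6b (r = 0.819) and Creb3l3 (r = 0.728), a liver factor cut like Atf6. None of the 22 Perk and Atf4 targets was called, with a median r of 0.109. These genes were named after their values were seen. The count for chaperones was 2 without wild type 9, 4 without wild type 6, 5 without wild type 2 or Lpl+/- 4, 3 with Spearman's rho and 1 with quantile normalization. That for translocation was 0 without wild type 9, with quantile normalization and with Spearman's rho. For the sensors it was 0 under these same 3 settings, 1 without wild type 2, wild type 6, Lpl+/- 3 or Lpl+/- 5, and 4 without wild type 4. For the targets of Perk and Atf4 it was 1 without wild type 8, Lpl+/- 3 or Lpl+/- 4, and 2 without wild type 4. Whether the lists differ between Hspa5 and Sdf2l1 was not tested.

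**Figure D5:**
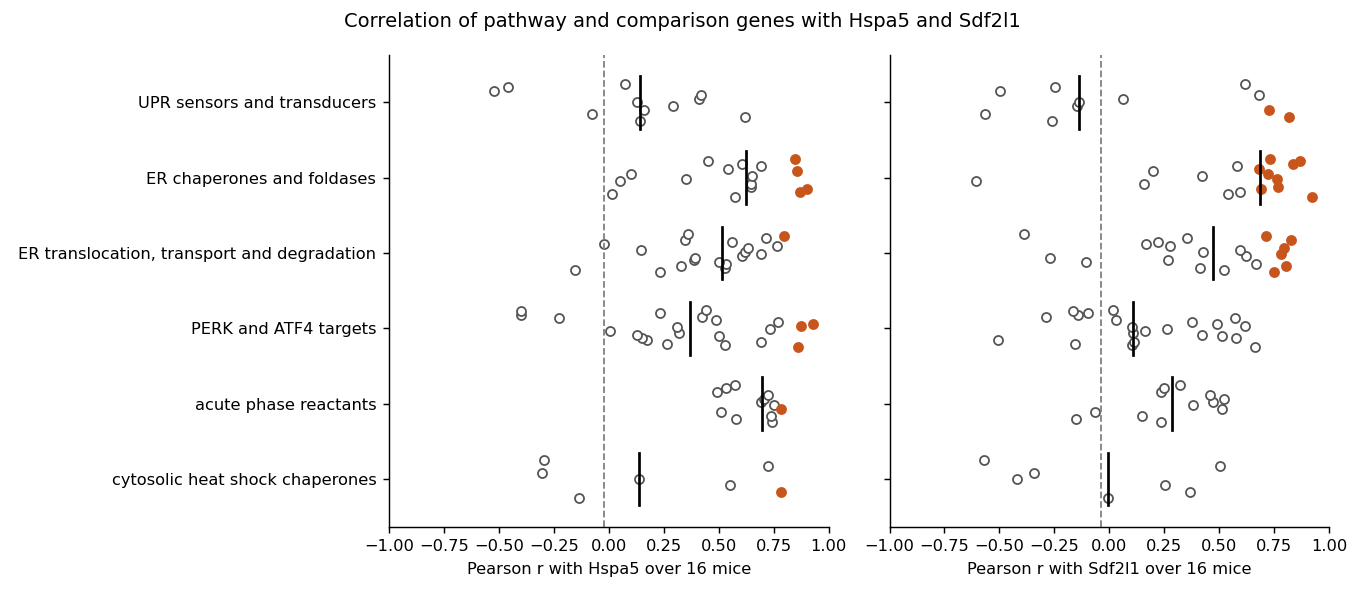
Pearson r over 16 mice of each list gene with Hspa5 (left) and with Sdf2l1 (right). Filled points were called positively at a limma adjusted p under 0.05, the bar is the median of the list and the dashed line the median over all features. Most ER chaperones lie to the right in both panels, while Ero1a lies to the left with Sdf2l1. Targets of Perk and Atf4 hold 3 called genes with Hspa5 and 0 with Sdf2l1, and acute phase reactants lie to the right with Hspa5 with 1 called.

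Genes outside the pathway also moved with Hspa5. Of 12 acute phase reactants, plasma proteins of the hepatocyte's response to inflammation, 11 had r over 0.5 with Hspa5, against 6.03% of features. The median r was 0.698, and 1 was called, Hp, which encodes haptoglobin (r = 0.785, limma adjusted p = 0.0353). The mean log ratio of the 12 ran from -0.701 to 0.0742 in wild type and from -0.627 to 0.544 in Lpl+/- mice. Without Lpl+/- 4 the median r was 0.492 with 6 over 0.5 and 0 called, and with Spearman's rho the median was 0.412 with 3 over 0.5 and 0 called. The count of calls was also 0 without Lpl+/- 2, 3 or 6 or wild type 2, 7 or 8, and it was 2 without wild type 1, 4 without wild type 6 or wild type 9, and 6 without wild type 5. With Sdf2l1 the median r of the list was 0.286, with 0 called. Hp and Hsp90aa1 were named after their values were seen. Of 7 cytosolic heat shock chaperones, 1 was called with Hspa5, Hsp90aa1 (r = 0.783, limma adjusted p = 0.0384), and the median r was 0.136. It was not called without Lpl+/- 2 to 8 or wild type 2, 7 or 8, each left out alone, and 2 of the list were called without wild type 1. The median r of 10 clock genes with Hspa5 was -0.454, with 0 called.

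Markers of other cell types were read beside these results. The median r with Hspa5 was 0.425 for 10 macrophage markers (4 over 0.5), 0.448 for 7 stellate cell markers (3 over 0.5), 0.262 for 7 neutrophil markers (2 over 0.5) and 0.112 for 8 endothelial and bile duct markers (2 over 0.5). It was -0.0356 for 5 plasma cell and B cell markers, 0.0817 for 8 pancreas acinar markers and -0.257 for 7 hepatocyte markers, with none over 0.5. No marker was called with Hspa5. With Sdf2l1, 1 marker was called, Prdm1 of the plasma cell list (r = -0.759, limma adjusted p = 0.0461). With Pdia4, 3 were called, Prdm1 (r = -0.731, limma adjusted p = 0.0356), the neutrophil gene Mpo (r = 0.776, limma adjusted p = 0.0196) and the endothelial gene Stab2 (r = -0.760, limma adjusted p = 0.00915), named after their values were seen. These stand against backgrounds of 5.39% and 12.4% of features. The mean log ratio of the macrophage markers ran from -0.164 to 0.142 in wild type and from -0.163 to 0.124 in Lpl+/- mice, that of the hepatocyte markers from -0.0599 to 0.119 and from -0.219 to 0.0418. Ratios do not show which markers are near background. The part of cell makeup in the Hspa5, Pdia4 and Sdf2l1 values was not tested.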

How the data were processed

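RNA of 16 livers was hybridised on 2-colour arrays against a common pool, labelled with Cy3 (channel 1) or Cy5 (channel 2), with dyes swapped, per the labels and the design text. RNA came from spin columns with DNase and was labelled by an automated aminoallyl method, per the labels' protocols. The authors deposited 1 column of log ratios per mouse, here read as log10, which end at 2 and -2. How swapped arrays were joined, the background correction, the normalization and the log base are not given in the sources used here. Array medians lay between -0.0045 and 0.0072, and each array had 0 to 88 values there.

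Among 39556 probes, the platform annotation names 1 gene symbol for 23283, several for 0 and none for 16273. Averaging per symbol left 36824 features, 20551 with a symbol. Of these symbols, 5076 were updated through synonyms in a RefSeq table of assembly GRCm38.p6. Genotypes were compared with limma 3.58.1 in R 4.3.3 (lmFit, eBayes, two-sided, Benjamini-Hochberg over all features, adjusted p under 0.05), and single genes also with an exact permutation test over the mice. Covariation was a limma fit of every other feature on a gene's own log ratio. Correlations had 100000 permutations (SciPy 1.17.1), and exact ones within 8 mice. Fits were tested on simulated data.

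The 9 genes and all lists were chosen with earlier results of these data known. Named genes were the 9, the 10 with the highest r with Hspa5, the 3 with the highest r with each other gene, the 3 with the smallest p and the 3 with the highest r with Hspa5 in each pathway list, and Lpl. Other names are marked in the text as chosen after their values were seen, or are markers and clock genes of fixed lists. Alternatives covered centring, quantile normalization, single probes, turned signs, arrays with values at the limit, a clock score, a filter on SD, the variance model, array weights, genotype as a covariate, the replicate numbers, ranks and each mouse left out. Hsp90b1 and P4hb were among the list genes without a usable symbol here and were not analysed.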

Additional observations from a re-analysis of the deposited data

Results flagged for a closer look

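In 8 of 124 groups of 8 mice, 1 mouse lay far from the others by Dixon's criterion, where chance alone gives about 6.2. Lpl+/- 4 was the high mouse in 4 of them, Dnajb11 at 0.255 (next mouse 0.0023), Mthfd2 at 0.184 (next mouse 0.0065), Ppib, an ER cyclophilin, at 0.203 (next mouse 0.0572) and Ssr3, a translocon subunit, at 0.204 (next mouse 0.0167). The same mouse had the highest Hspa5 and Sdf2l1 values. Dnajb11, Mthfd2 and Ssr3 were picked for their r with Hspa5, which favours genes that are high in this mouse. The number given by chance does not allow for this choice. Atf3 in wild type 5, an array whose direction is unsettled, stood at 0.173 (next mouse 0.0375), above all others of its group. Sec23b, a COPII coat gene, stood at 0.135 in Lpl+/- 7 (next mouse -0.0182), and Olfr1489 at 0.249 in Lpl+/- 8 (next mouse 0.0375). Mbtps1, the protease that cuts Atf6, was low in wild type 9 at -0.0943 (next mouse -0.007).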

How the results depend on the processing

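The genotype difference of the 9 genes stayed without a call in all 28 alternatives. Over all features the count of 6 was 0 with quantile normalization and with a trended, robust variance, 1 with the replicate block, with the same 14 arrays without a block (chosen after seeing the data) and without the 3 arrays holding the most limit values, and 3 with wild type 8 turned. Without 1 mouse it ran from 1 to 9. The 175 features called with Hspa5 became 0 with the replicate block, 23 with the clock score as a covariate and with Spearman's rho, 71 without those 3 arrays, 73 with wild type 8 turned and 381 with wild type 5 turned, and 14 to 419 without 1 mouse. With the replicate block the features called with Pdia4 fell from 4580 to 0 and those with Sdf2l1 from 1983 to 1, and 0 genes of the chaperone, translocation, sensor and Perk and Atf4 target lists were called with Hspa5, Sdf2l1 or Pdia4. On the same 14 arrays without a block the chaperone counts were 4, 1 and 3, and with Sdf2l1 those of translocation and sensors were 0. The causes were not tested. The Hspa5 difference turned to 0.0159 with wild type 8 turned and ran from -0.0551 to 0.0071 without 1 mouse. That of Trib3 turned to -0.00132 with quantile normalization, -0.00699 with array weights and -0.0541 with the replicate block and with the same 14 arrays, and ran from -0.0261 to 0.0375 without 1 mouse. That of Dnajb9 ran from -0.0262 to 0.00532. With the replicate block, the r of Pdia4 and Sdf2l1 was 0.873 (limma adjusted p = 0.246) and that of Hspa5 and Nars 0.963 (limma adjusted p = 0.117), neither called. The numbers do not show pairing. Arrays sharing a number had r from -0.245 to 0.381 in their deviations, over 0.1 in 3 of 7, and 1 wild type array correlated best with its own number. The mice are separate animals, so p-values cover biological and technical spread together.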
